A study of Rattus norvegicus with 3 samples.

Results

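ATP-binding cassette (ABC) transporters were followed in the thoracic aorta of allylamine-dosed rats through 9 genes: the drug exporters Abcb1a, Abcc1 and Abcc3, the phospholipid and bile salt exporters Abcb4 and Abcb11, the arterial calcification gene Abcc6, the sulfonylurea receptors Abcc8 and Abcc9, and the peroxisomal transporter Abcd3. The members were all probe sets (groups of short oligonucleotides that together report 1 transcript) to which the platform annotation gave exactly 1 gene symbol and that symbol was one of the 9. They were 14 of 8740 probe sets, and 9 of the 4736 genes named by such probe sets. All 3 groups were Sprague Dawley rats and the RNA was total RNA of thoracic aorta. The control group received water at 1 ml/kg and the others allylamine at 35 mg/kg or at 70 mg/kg, each for 20 days. Each group was measured on 1 array. The sources used here give neither age nor sex, nor how many animals stand behind an array. Allylamine is an unsaturated amine that vascular amine oxidase turns into acrolein and hydrogen peroxide.

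ABC transporters bind and hydrolyse ATP on a pair of nucleotide-binding domains and use it to move substrates across membranes. The exporters of the B and C classes carry drugs, lipids, bile salts and glutathione conjugates out of cells, and conjugation to glutathione is a main route by which acrolein is disposed of. The sulfonylurea receptors Abcc8 and Abcc9 transport nothing: they are the regulatory subunits of ATP-sensitive potassium (KATP) channels, whose pores are formed by Kcnj8 or Kcnj11. In vascular smooth muscle the channel of Abcc9 and Kcnj8 opens when ATP falls, hyperpolarises the cell and relaxes the vessel.

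RefSeq promoter windows of the GRCr8 assembly, 250 bases before to 50 bases after the start site, were found for 6 of the 9 members and for Kcnj8. Those of 5 genes are shown. Those of Abcb4 and Abcd3 are not, although Abcb4 too passed 2-fold, as described below. Of the genes shown, Abcb1a and Abcc1 were brighter on both allylamine arrays than on the control array. Abcc6 and Kcnj8 were dimmest at 70 mg/kg, and Abcc9 is the partner of Kcnj8. Capitals mark TGANTCA, the AP-1 site, in Abcb1a, GGGCGG, the GC box, on either strand in Abcc1, Abcc6 and Kcnj8, and the MEF2 site of muscle genes in Abcc9.
Abcb1a, chr4:26397599-26397898, minus strand: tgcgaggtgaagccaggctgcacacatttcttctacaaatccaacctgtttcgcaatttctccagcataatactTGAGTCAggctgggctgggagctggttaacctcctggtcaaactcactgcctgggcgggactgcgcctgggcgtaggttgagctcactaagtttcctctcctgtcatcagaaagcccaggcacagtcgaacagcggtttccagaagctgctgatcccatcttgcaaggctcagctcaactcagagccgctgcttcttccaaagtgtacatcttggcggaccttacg
Abcc1, chr10:1162318-1162617, minus strand: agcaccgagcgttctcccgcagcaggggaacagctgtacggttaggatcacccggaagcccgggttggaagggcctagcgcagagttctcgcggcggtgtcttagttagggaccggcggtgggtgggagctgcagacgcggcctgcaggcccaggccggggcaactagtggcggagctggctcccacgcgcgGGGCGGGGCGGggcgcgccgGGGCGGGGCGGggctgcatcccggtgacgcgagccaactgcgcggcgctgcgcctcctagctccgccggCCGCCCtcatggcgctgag
Abcc6, chr1:105637846-105638145, minus strand: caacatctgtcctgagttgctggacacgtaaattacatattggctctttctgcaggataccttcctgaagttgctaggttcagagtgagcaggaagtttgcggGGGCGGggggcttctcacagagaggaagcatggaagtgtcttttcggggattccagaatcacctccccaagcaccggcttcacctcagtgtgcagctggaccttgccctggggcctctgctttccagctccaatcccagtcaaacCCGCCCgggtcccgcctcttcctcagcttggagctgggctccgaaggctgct
Abcc9, chr4:177386299-177386598, minus strand: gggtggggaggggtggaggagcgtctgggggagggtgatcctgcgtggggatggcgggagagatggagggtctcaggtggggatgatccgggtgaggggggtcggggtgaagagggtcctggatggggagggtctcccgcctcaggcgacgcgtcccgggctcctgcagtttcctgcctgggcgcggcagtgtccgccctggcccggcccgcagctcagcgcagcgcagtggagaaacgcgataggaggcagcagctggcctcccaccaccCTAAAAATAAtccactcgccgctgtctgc
Kcnj8, chr4:177246499-177246798, minus strand: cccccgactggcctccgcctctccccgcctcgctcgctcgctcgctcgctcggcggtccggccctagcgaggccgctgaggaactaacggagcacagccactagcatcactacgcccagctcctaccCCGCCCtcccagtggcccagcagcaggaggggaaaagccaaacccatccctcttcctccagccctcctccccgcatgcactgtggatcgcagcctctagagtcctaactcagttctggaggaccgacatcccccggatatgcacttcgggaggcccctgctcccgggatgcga

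Both strands were searched for 7 motifs. The GC box was present in all 7 windows found, against 33.1% of 33469 windows of this length and 41.8% of the 21842 that belong to protein-coding genes. The 7 windows held 53.7% to 75% G and C, and the median over protein-coding genes was 55%. TGANTCA was found in Abcb1a only and is held by 7.33% of all windows. The MEF2 site, searched after the Abcc9 window had been read, was found in Abcc9 only, from base 21 to base 30 counted from 0 at the start site, and is held by 3.29% of all windows. CCAAT was found in Abcc6 (37.5% of all windows) and CANNTG, the E-box, in Abcb4, Abcc1, Abcc6 and Abcc9 (72.1%). The CArG box of smooth muscle genes (1.64%) and TGACNNNGC, the core of the antioxidant response element (12.1%), were not found in these letters in the 7 windows. Among the matches, the only overlaps were between GC boxes of Abcc1.

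Intensities are given as scaled intensities, the deposited linear values brought to a common median over the 3 arrays. A value below 188, the 40th percentile of all scaled values, was treated as not measured, and this limit is called the floor. A difference is the log2 ratio of 2 arrays where both lay above the floor, a gene with several probe sets takes the median of those measured, and a difference of at least 1 (2-fold) is called higher or lower. Where only 1 array lay above the floor, the fold is a lower bound against the floor. With 1 array a group there is no replicate check and no test, so each difference is that between these arrays. In whole aorta, fewer cells of a type and less RNA per cell cannot be told apart.

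The arrays differed in ways that touch every value below. Log2 values correlated across probe sets with r = 0.70 between control and 35 mg/kg and 0.48 between control and 70 mg/kg. The log2 range from the 5th to the 95th percentile was 6.58, 6.16 and 5.22 on the control, 35 and 70 mg/kg arrays. Scaling to a common median does not change this range. The 9 bacterial and phage hybridisation controls were a median of 3.81 and 28.8 times as bright at 35 and 70 mg/kg as on the control array, and the 3' over 5' ratio of the actin control probe sets was 0.376, 0.542 and 1.42 on the control, 35 and 70 mg/kg arrays. The part of these array differences in the results was not tested. Smooth muscle markers were read for the labelled tissue, and 11 of 12 genes were on the array. Each lay above the floor on at least 1 array. Of their 22 probe sets, 15, 14 and 16 lay above it on the control, 35 and 70 mg/kg arrays. Over all probe sets with 1 symbol, 60.2%, 59.2% and 60.7% lay above it. The hepatocyte and islet marker genes on the array also each lay above it at least once, so this cannot decide the tissue. The summed scaled intensity of the smooth muscle markers was 16310, 16560 and 28430. Without the 1 probe set of widest range, of Tpm1, the sums were 16060, 10740 and 11290, and without all of Tpm1 they were 8343, 7589 and 10400.0. Sums with a gene or probe set left out, here and for the other cells, were added after the data had been seen.

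Of the 14 member probe sets, 6 lay above the floor on all 3 arrays, 5 on 2 arrays, 2 on 1 array and 1 on none. Over all 7006 probe sets with 1 symbol, 37.3% lay above the floor on all 3 arrays, against 42.9% here. A single probe set stood for 5 genes (Abcb1a, Abcb4, Abcb11, Abcc3 and Abcc6). Abcc1, Abcc8 and Abcd3 had 2 each and Abcc9 had 3. Of the 14, 6 carry the suffix s, by which the array maker marks probes that can match more than 1 transcript.

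At 70 mg/kg, 7 of the 9 genes were measured on both that array and the control array. Abcb1a and Abcc9 were at least 2-fold higher and Abcc6 and Abcb11 at least 2-fold lower, while Abcb4, Abcd3 and Abcc8 differed by less. Probe sets above the floor in the control only add Abcc3, at least 2.92-fold lower, and a probe set of Abcc9 at least 2.94-fold lower, against that gene's call. Without these bounds, this is 4 of 7 genes past 2-fold, where 42.9% of all 2462 genes measured were (19.7% higher, 23.2% lower). The median of the 7 differences was 0.48, and that of all genes -0.06. At 35 mg/kg, 7 genes were again measured, with Abcb4 and Abcb1a at least 2-fold higher and 0 genes lower, where 33.1% of all 2606 genes passed 2-fold (16.8% higher, 16.3% lower). The median was 0.37 against 0.04 for all genes. Outside that count, a probe set of Abcd3 dropped below the floor and was at least 2.10-fold lower. The control array is common to these counts, which share its error. Between the doses, Abcb11, Abcc6 and Abcb4 were lower at 70 mg/kg and 0 of 7 genes were higher, where 35.3% of all 2459 genes passed 2-fold (14.4% higher, 20.9% lower). Outside that count, the same Abcd3 probe set went the other way and was at least 3.32-fold higher at 70 than at 35 mg/kg. Each of the 3 lower genes rests on 1 probe set of the suffix s. Without the probe sets of that suffix, an alternative chosen after the data had been seen, 3 genes remained measured at 70 mg/kg against control with 2 past 2-fold, 2 at 35 mg/kg against control with 1 past it, and 3 between the doses with 0.

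**Figure D1:**
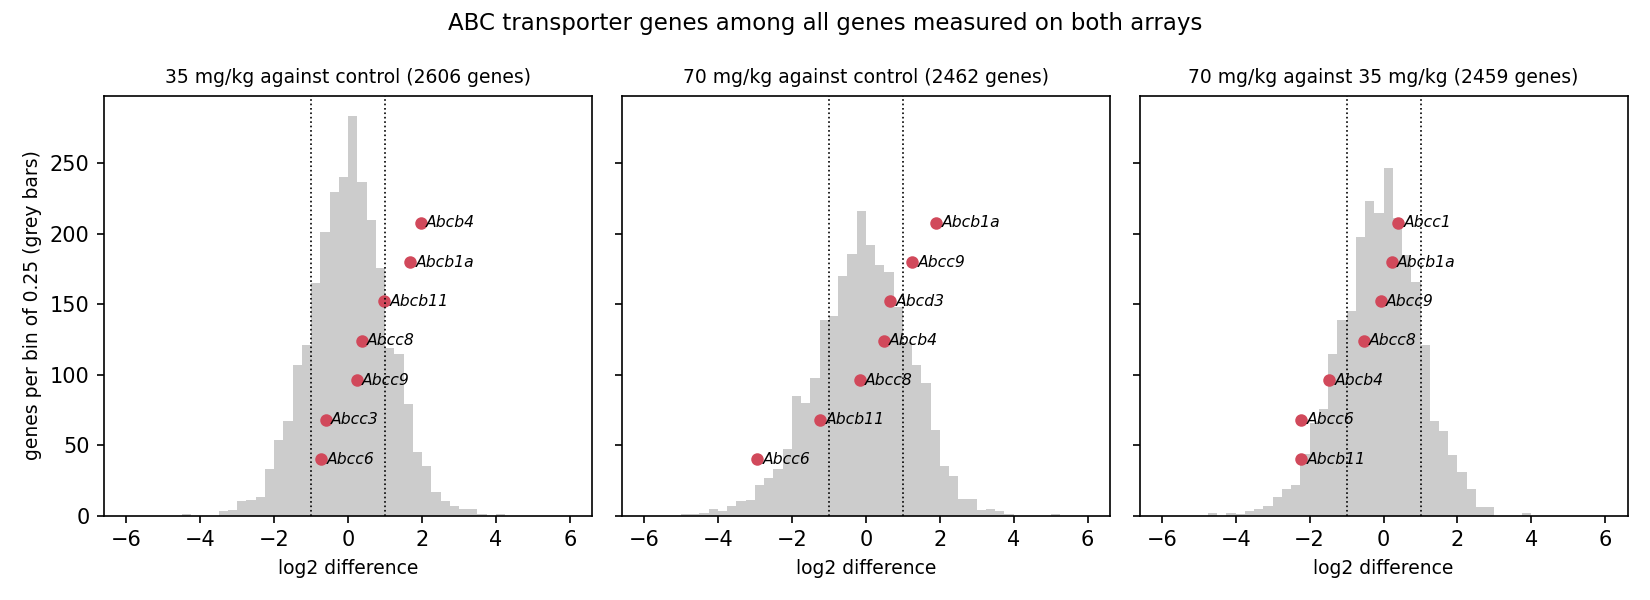
Log2 differences of the ABC transporter genes (red points, named) among all genes measured on both arrays (grey bars, genes per bin of 0.25), for 35 mg/kg against control, 70 mg/kg against control and 70 against 35 mg/kg. The height of a red point has no meaning, dotted lines mark 2-fold, and the members lie on both sides of 0 in each panel, with Abcc6 at -2.95 the farthest from it.

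Abcb1a encodes a P-glycoprotein, the broad-range drug exporter of barrier endothelium. Its probe set read 197 in the control, just above the floor, 632 with 35 mg/kg and 737 with 70 mg/kg. Both allylamine arrays were thus above the control array, and they lay close to each other. The difference from control was 1.68 at 35 mg/kg, with 141 of 2606 genes having a greater increase, and 1.90 at 70 mg/kg, with 122 of 2462 genes above it. Between the doses it was 0.22. Over the alternatives that measured it, the 70 mg/kg difference ran from 1.90 to 2.05. With 1 probe set only the scaling could move it, so this range does not measure its reliability. The control value lay under a 55th-percentile floor, which ended both calls against control. Endothelial markers gave 8 of 11 genes on the array, and each lay above the floor on at least 1 array. Their 15 probe sets lay above it 11, 10 and 12 times on the control, 35 and 70 mg/kg arrays, with sums of 12980, 12830 and 10280, and 4990, 7132 and 7489 without Thbd. Marker sums of other cells on these arrays were 1854, 4039 and 5734 for nerve, 5180, 4282 and 7914 for macrophages and leukocytes, and 14690, 12640 and 6926 for adipocytes. Without the gene of widest range in each list (Snap25, Ptprc and Lep) they were 869.5, 1282 and 914, then 4670.0, 3652 and 5622, and 4304, 4317 and 4955. Their part in the Abcb1a values was not tested.

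Abcc1, the multidrug resistance protein that exports glutathione conjugates, was not measurable in the control aorta. Its 2 probe sets read 87.4 and 30.5 there, both below the floor. At 35 mg/kg they read 203 and 300.3, and at 70 mg/kg 344 and 307. Both probe sets thus crossed the floor in the same direction on both allylamine arrays. Against the floor, the lower bounds at 35 and 70 mg/kg were 1.08-fold and 1.82-fold higher for the first probe set, and 1.59-fold and 1.63-fold for the second. These bounds stay under 2-fold, and Abcc1 is not counted as higher in either comparison with control. Under the lowest floor tried, the 5th percentile, its difference was 1.22 at 35 mg/kg and 1.98 at 70 mg/kg, from the first probe set alone. Between the doses Abcc1 differed by 0.39, with its probe sets at 0.03 and 0.76.

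Abcc3, an exporter of glucuronides and bile salts, went the other way from Abcc1. It read 550.0 in the control aorta, 361 after 35 mg/kg and 188.1 after 70 mg/kg, where it lay just below the floor of 188.3. The order was control, 35 mg/kg, 70 mg/kg from high to low. Its difference at 35 mg/kg was -0.61, and at 70 mg/kg it was at least 2.92-fold lower. With the values as deposited it lay above the floor on each array and differed by -1.40 at 70 mg/kg.

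Abcb4 moves phosphatidylcholine into bile and Abcb11 is the bile salt export pump, both known chiefly from the liver cell's canalicular membrane. Abcb4 read 937 in the control aorta, 3653 after 35 mg/kg and 1309 after 70 mg/kg. It was highest at the lower dose, by 1.96 over control, and 83 of 2606 genes had a greater increase. At 70 mg/kg it differed from control by 0.48 and from the lower dose by -1.48. Abcb11 read 663, 1311 and 281 on the same arrays. It too was highest at 35 mg/kg, at 0.98 over control, just under 2-fold and 1.00 with the values as deposited. At 70 mg/kg it was lowest, at -1.24 from control and -2.22 from the lower dose. In the GRCr8 gene table Abcb4 and Abcb1a lie on the same chromosome with 1 protein-coding gene, Abcb1b, between them. The probe set of Abcb4 carries the suffix s, and signal from these close paralogs cannot be told apart by the values.

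Beside these exporters, hepatocyte markers gave 10 of 11 genes on the array, of which all lay above the floor on at least 1 array. Their 22 probe sets lay above the floor 13, 13 and 14 times on the control, 35 and 70 mg/kg arrays, with summed scaled intensities of 7591, 10930 and 9170. None of their values was 0. Without the gene of widest range, Serpina1, the sums were 6275, 7867 and 8421, highest at 70 mg/kg. Without only the probe set of widest range, also of Serpina1, they were 6449, 8943 and 8747, highest at 35 mg/kg. The part of these cells in the values of Abcb4 and Abcb11 was not tested. Of 18 listed regulators and partners of bile acid transport, 13 were on the array. At 70 mg/kg 11 were measured, 4 of them higher and 1 lower, with a median of 0.17. Over all genes 19.7% were higher and 23.2% lower. The uptake carrier Slco1a5 was at 1.92, the hepatic bile acid uptake carrier Slc10a1 at 1.62 and the retinoid X receptor Rxrb at 1.12. The bile acid binding protein Fabp6 was at 1.88 on 1 probe set. Its other probe set lay below the floor on the control, 35 and 70 mg/kg arrays, at 39.9, 165 and 96.3. The lower gene, named in addition, was Slco1a4 at -1.06. At 35 mg/kg 8 were measured, 2 higher and 0 lower, with a median of -0.24. Over all genes 16.8% were higher and 16.3% lower. The 2 were Rxrb (1.43) and Fabp6 (1.14, on the same 1 probe set). Bounds outside that count, added after the values had been seen, ran mostly the other way. Baat and a probe set of Cyp7a1 were at least 2.61-fold and 2.14-fold lower. Slc10a1 and Slco1a5 fell below the floor, at 95.9 and 30.0, at least 1.98-fold and 1.13-fold lower. Slco1a1 was at least 1.06-fold higher. Nr1h4, the bile acid receptor that drives Abcb11 in liver and is named here after its values had been seen, read 917, 645 and 677 on the control, 35 and 70 mg/kg arrays.

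Abcc6 is best known from pseudoxanthoma elasticum, in which its loss leads to calcified elastic fibres in arteries, skin and eye, and it promotes release of ATP from liver cells as a source of the calcification inhibitor pyrophosphate. It read 2656 in the control aorta, 1605 after 35 mg/kg and 344 after 70 mg/kg. The order was again control, 35 mg/kg, 70 mg/kg from high to low, with every value above the floor. The differences from control were -0.73 at 35 mg/kg and -2.95 at 70 mg/kg, a 7.72-fold lower value, and 44 of 2462 genes had a greater decrease. Between the doses it was -2.22. Over the alternatives that measured it, the 70 mg/kg difference ran from -2.95 to -2.77. Here too only the scaling could move the value of 1 probe set. This probe set carries the suffix s, and no second Abcc6 probe set was there to set beside it. Of 490 genes with several measured probe sets at 70 mg/kg against control, 48.4% had all of them differing in the same direction. The median range within such a gene was 1.40, wider than the 2-fold limit. Between the doses these figures were 46.6% of 558 genes and 1.26. This limits Abcb1a, Abcb4 and Abcb11 too, each with 1 probe set.

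Of 20 listed genes of arterial calcification, 14 were on the array. At 70 mg/kg 8 were measured, with 0 higher, 2 lower and a median of -0.49, beside 19.7% higher and 23.2% lower over all genes. The vitamin K dependent ligand Gas6 was at -2.72 on 1 probe set while its other went from 124, below the floor, to 228, the phosphate carrier Slc20a2 at -1.25, the fetuin gene Ahsg at 0.81 and osteocalcin (Bglap) at -0.64. At 35 mg/kg 9 were measured, 2 higher and 2 lower, with a median of -0.28, beside 16.8% higher and 16.3% lower over all genes. Osteoprotegerin (Tnfrsf11b) was at 2.04 and the vitamin K dependent carboxylase Ggcx at 1.68, both from control values just above the floor. At 70 mg/kg the same probe sets of Tnfrsf11b and Ggcx lay below it, at 119.8 and 115.9. Slc20a2 was at -1.10 and the matrix protein Sparc at -1.01, the median of probe sets at -1.88 and -0.13. Enpp1, the enzyme that makes pyrophosphate from ATP and is named after its values had been seen, read 883 on the control array and lay below the floor at 76.7 and 54.0 on the 35 and 70 mg/kg arrays, at least 4.69-fold lower on each. Mgp, the matrix Gla protein of the vessel wall, also named afterwards, read 1403, 1092 and 1201.

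**Figure D2:**
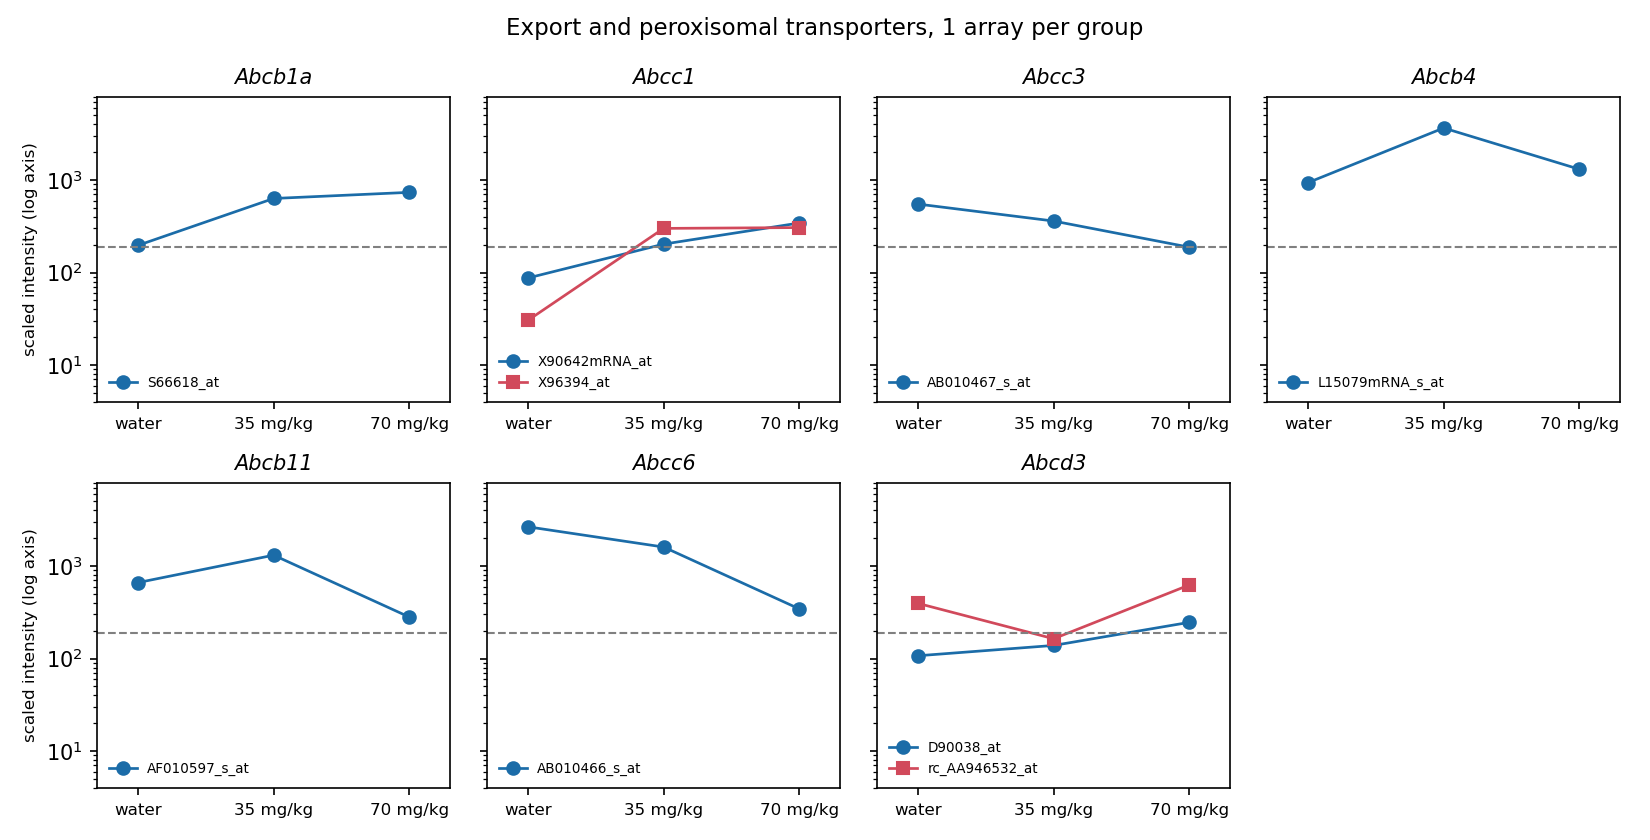
Scaled intensity (log axis) of each probe set of Abcb1a, Abcc1, Abcc3, Abcb4, Abcb11, Abcc6 and Abcd3 on the water control, 35 mg/kg and 70 mg/kg arrays, 1 point per array, with the floor of 188 as a dashed line. Abcb1a and Abcc1 lie higher on both allylamine arrays than on the control array, Abcc3 and Abcc6 lie lower at each dose, and Abcb4 and Abcb11 are highest at 35 mg/kg.

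The sulfonylurea receptor of vascular KATP channels, Abcc9, had 3 probe sets, and they did not move together. D83598_at read 1062 in the control aorta, 2675 after 35 mg/kg and 2532 after 70 mg/kg. It was higher on both allylamine arrays, by 1.33 and 1.25. AF019628_at read 553, 303 and 86.1 on the same arrays. It was lower at each dose, by -0.87 at 35 mg/kg and at least 2.94-fold at 70 mg/kg. AF087838_s_at read 80.6, 171 and 234, above the floor at 70 mg/kg only, where it was at least 1.25-fold higher. The gene's call at 70 mg/kg therefore rests on D83598_at alone. At 35 mg/kg the median of its 2 measured probe sets was 0.23 and their range 2.20. Of 562 genes with several measured probe sets in that comparison, 49.8% had all of them on the same side of 0, and the median range was 1.11. Between the doses D83598_at differed by -0.08, but by 0.05 with the values as deposited and 0.51 after quantile normalization. The sources used here do not say which Abcc9 transcript each probe set reports.

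Kcnj8, the pore subunit that assembles with Abcc9 in vascular muscle and lies beside it in the GRCr8 gene table with 0 protein-coding genes between, read 1057 in the control aorta, 541 after 35 mg/kg and 225 after 70 mg/kg. It was lower at each dose, by -0.96 and -2.23, and 125 of 2462 genes had a greater decrease at 70 mg/kg. Its order over the arrays was that of AF019628_at. AF087838_s_at, above the floor at 70 mg/kg only, was highest there, where Kcnj8 was lowest.

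Abcc8 is the receptor of the pancreatic beta cell and neuronal channel, where it assembles with Kcnj11, and these genes too are neighbours with 0 protein-coding genes between. Its probe set L40624_at lay below the floor on every array, at 90.1, 75.2 and 68.9. The other, rc_AA799786_s_at, read 263, 339 and 234 on the control, 35 and 70 mg/kg arrays. Its differences from control, 0.37 and -0.17, stayed under 2-fold, and its values lay near the floor. Kcnj11 had 2 probe sets from the same sequence accession, which may share probes. They read 1498 and 4615 in the control aorta, 239.6 and 1478 after 35 mg/kg, and 2281 and 1636 after 70 mg/kg. Both were lower at 35 mg/kg, with a median of -2.14. At 70 mg/kg they parted, at 0.61 and -1.50, and their median of -0.44 was 0.04 after quantile normalization. Islet markers, for the cells in which Abcc8 is best known, gave 5 of 6 genes on the array. Their 9 probe sets lay above the floor 6, 5 and 7 times on the control, 35 and 70 mg/kg arrays, with summed scaled intensities of 11200, 24190 and 5096 and 0 values at 0. Without 1 probe set of Ins1 the sums were 6959, 3378 and 3028, so that the peak at 35 mg/kg was gone. Cardiac and skeletal muscle markers, for other tissue rich in Abcc9, gave 10 of 10 genes. Their 16 probe sets lay above the floor 11, 8 and 8 times, with sums of 10400, 9589 and 6106, and Tnni3 was below it throughout. The part of either list in these values was not tested.

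**Figure D3:**
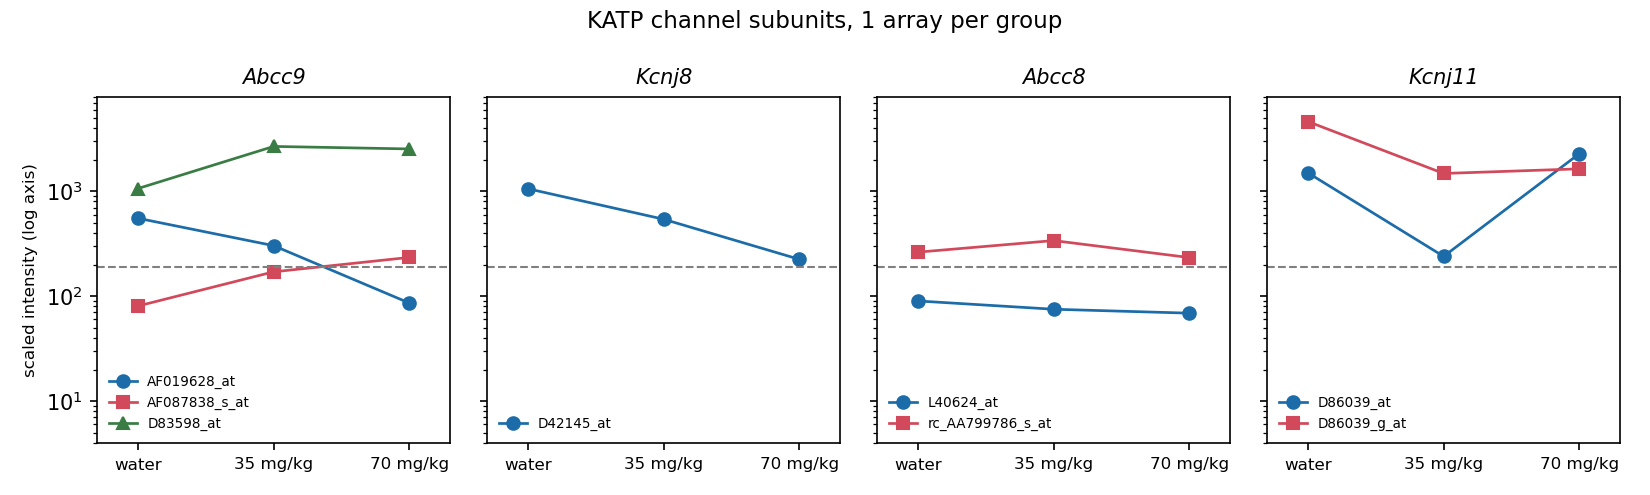
Scaled intensity (log axis) of the probe sets of the receptors Abcc9 and Abcc8 and the pore subunits Kcnj8 and Kcnj11 on the water control, 35 mg/kg and 70 mg/kg arrays, 1 point per array, with the floor of 188 as a dashed line. The 3 Abcc9 probe sets take different courses, Kcnj8 is lower at each dose, and L40624_at of Abcc8 stays under the floor.

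The probe sets with the most similar course were those nearest in the pair of differences from control, over 3 arrays and among 2611 probe sets of other genes above the floor on all of them. For D83598_at of Abcc9 they belonged to Renbp (distance 0.05 on the log2 scale), Nr4a2 (0.07) and Ugt2b7 (0.07). For rc_AA799786_s_at of Abcc8 they belonged to Ccnd2 (0.02), Slc5a3 (0.04) and Nalcn (0.04).

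Abcd3 lies in the peroxisomal membrane, where it pairs with a like subunit, and brings in branched-chain and other fatty acyl substrates for oxidation. Its probe set rc_AA946532_at read 395 in the control aorta, 164 after 35 mg/kg and 625 after 70 mg/kg. It was lowest at 35 mg/kg, at least 2.10-fold below control, and differed by 0.66 from control at 70 mg/kg. D90038_at read 107, 139 and 246, above the floor at 70 mg/kg only. Both probe sets were highest at 70 mg/kg. The control and 35 mg/kg values of D90038_at both lay below the floor, so their order cannot be set against that of rc_AA946532_at. Of 37 listed peroxisomal genes, 22 were on the array and 9 were measured at 70 mg/kg, with a median of -0.32. Of these, 1 was higher and 2 lower, beside 19.7% higher and 23.2% lower over all genes. They were the racemase Amacr (1.45), the dienoyl-CoA isomerase Ech1 (-2.23) and the import ATPase Pex6 (-1.92). The 70 mg/kg value of Ech1, 190, lay just above the floor. The carnitine octanoyltransferase Crot was at -0.63. At 35 mg/kg 8 were measured, 0 higher and 1 lower, Crot at -1.76, with a median of -0.12. Over all genes 16.8% were higher and 16.3% lower. Outside that count are probe sets above the floor on 1 of these arrays only. By these bounds Ech1 was at least 4.7-fold lower than control, and probe sets of Pex2, Scp2 and Hsd17b4 at least 3.70-fold, 2.83-fold and 2.54-fold lower. Probe sets of Pex5 and Uox were at least 3.19-fold and 2.26-fold higher. Other probe sets of some of these genes did not go along. Another of Pex2 was at least 1.525-fold higher. Others of Hsd17b4 were at -0.26 and at least 1.12-fold higher. The Uox probe sets measured on both arrays were at 0.45 and -0.10. The plasmalogen synthesis enzyme Gnpat was at -0.76, with probe sets at -2.09 and 0.58, and at 70 mg/kg both lay below the floor, at least 7.13-fold and 6.84-fold under control. Between the doses 6 were measured, with Pex11a, which promotes peroxisome division, at 2.36, Crot at 1.13 and Pex6 at -1.33. Over all genes 14.4% were higher and 20.9% lower. These Pex11a values rest on 1 probe set, which lay below the floor in the control and was at least 6.37-fold above control after 70 mg/kg. The other Pex11a probe set lay below the floor on the control, 35 and 70 mg/kg arrays, at 20.4, 139 and 68.7.

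Of the 13 member probe sets above the floor on at least 1 array, 7 (53.8%) had their lowest value in the control aorta, 1 (7.69%) after 35 mg/kg and 5 (38.5%) after 70 mg/kg. Over all 5735 such probe sets with 1 symbol these shares were 34.1%, 29.6% and 36.3%. These counts also order values below the floor. AF087838_s_at of Abcc9 and D90038_at of Abcd3 count as lowest in the control, although their 35 mg/kg values too lay below it. Probe sets of the same gene, such as both of Abcc1, count separately. The other 3 genes with symbols of the ABC family gave no difference, since none lay above the floor on more than 1 array. The P-glycoprotein Abcb1b read 119.8 in the control aorta, 141 after 35 mg/kg and 93.0 after 70 mg/kg. Abcb6, a mitochondrial and endosomal transporter, reached 191 at 70 mg/kg and was below the floor elsewhere. The conjugate exporter Abcc2 read 112, 162 and 344, and its 70 mg/kg value was at least 1.82-fold above control. Relatives that carry other symbols were looked at after the values had been seen. Tap1 and Tap2, which form the peptide transporter of antigen presentation, lay above control: Tap1 on both probe sets, by at least 2.93-fold and 7.76-fold after 35 mg/kg and by at least 2.78-fold and 4.80-fold after 70 mg/kg, and Tap2 by 1.02 and 2.06 on the log2 scale. The chloride channel Cftr read 1072, 1144 and 1486 and differed from control by 0.09 and 0.47.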

How the data were processed

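The deposited table holds 1 linear intensity per probe set and array. The sources used here do not name the authors' software or scaling. The deposited intensities had 2% trimmed means of 500.4, 500.4 and 500.2 on the control, 35 and 70 mg/kg arrays, so they had already been scaled. Of 8799 probe sets, 59 control probe sets were left out. The platform annotation gave 1 symbol to 7006 of the rest, several to 308 and none to 1426, and all 9 members kept their symbol in the GRCr8 gene table when matched by gene ID. Each array was scaled to the mean of the array medians (log2 shifts of 0.06, 0.04 and -0.09), the floor was the 40th percentile of scaled values, and log2 differences were taken as the report describes, with Python 3.11.15, numpy 2.4.6 and pandas 2.3.3. The arithmetic was checked on simulated arrays with known changes put in. This does not measure how reliable the differences between the real arrays are. With so few arrays the precision of each difference is limited. All members and pore subunits are named, and of each gene list up to 4 genes per comparison with the largest absolute differences, with the additions said in the text. The members, lists and rules were chosen with earlier results of these data known. Alternatives were the values as deposited, quantile normalization, other floors (5th, 25th and 55th percentile), taking only the brightest probe set of a gene, and, chosen after seeing the data, leaving out probe sets of the suffix s.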

Additional observations from a re-analysis of the deposited data

How the results depend on the processing

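The counts of members past 2-fold (4 at 70 mg/kg and 2 at 35 mg/kg against control, 3 between the doses) and of member probe sets above the floor on all 3 arrays (6) stayed within 1.5 times under the values as deposited, quantile normalization, a floor at the 25th percentile and, for the gene counts, the brightest probe set per gene. With a floor at the 55th percentile, 2 members passed at 70 mg/kg (Abcc6 and Abcc9) and 3 probe sets lay above it on all arrays; Abcb1a was no longer measured against control, so the 2 that passed at 35 mg/kg were Abcb4 and Abcc9. With a floor at the 5th percentile, 4 members passed at 35 mg/kg and 13 probe sets lay above it. Without probe sets of the suffix s, 2 members passed at 70 mg/kg, 1 at 35 mg/kg and 0 between the doses, with fewer genes measured. No member past 2-fold changed sign under an alternative that measured it. This is no check on most of them, since all but Abcc9 have 1 probe set. Other floors and probe set rules could only keep or drop such a value, and only the scaling could move it. The median probe set rule and the brightest probe set differed for Abcc9 at 35 mg/kg (0.23 against 1.33). Signal near the floor limits Abcb1a, Abcc1, Abcc3, Abcc8 and Abcd3, and 1 array a group limits every difference.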
